A study of Drosophila melanogaster with 24 samples.

Results

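The Wnt pathway genes described here are wg, fz, fz2, fz3, arr, arm, Axn, sgg and nkd, 9 genes taken by symbol from tables that list 17136 annotated genes for the midgut libraries and 17830 FlyBase genes for most of the others. All 9 were found in each of the 24 libraries. In the 12 midgut libraries 7 of them passed the filter for testing, a mean of at least 1 TPM (an abundance scaled by transcript length and library total), and wg and fz3 did not.

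In Drosophila, secreted Wingless, the product of wg, binds a Frizzled receptor together with the co-receptor Arrow. Without the ligand, Axin holds Armadillo, the fly beta-catenin, in a complex where the kinase Shaggy marks it for destruction. With the ligand, Armadillo accumulates and activates target genes with the factor Pangolin, and some targets, such as nkd and fz3, dampen the signal. In the adult midgut Wingless is known as a signal to intestinal stem cells, with the visceral muscle as a known source.

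The libraries fall into 7 groups. Of the midgut groups, with 4 libraries each, the first carries an RNAi construct against Adar under a temperature-sensitive esg driver and is 10 days old, and the others carry lacZ under that driver at 30 days and at 10 days. esg marks the stem cells of the midgut together with enteroblasts, so the driver directs the knockdown to cells in which esg is on. The further groups, with 3 libraries each, are a knockdown of Zn72d with its control and libraries labelled as overexpressing ADAR E374A with a control. No age or driver is given for these 12, their tissue label is whole organism, and the extraction protocol shared by all libraries speaks of stem cells sorted from the midgut. ADAR edits adenosines in double-stranded RNA, and Zn72D, which binds RNA, has a known role in editing. Nothing in the labels says that the libraries of a group come from separate animals, so the p-values rest on a spread between libraries that may be technical.

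Between 8070 and 8702 genes reached 1 TPM in a library. Read counts were not used, so the depth behind each value is unknown. The tables come in 2 formats, since all 12 from the midgut, and that labelled E374A control 3, were deposited with loci assembled from the reads. No test was therefore made between the midgut set and the rest, though the E374A comparison below holds both formats. Adar had 7.78 to 23.5 TPM in the Adar knockdown libraries and 29.2 to 45.7 TPM in the 10-day lacZ libraries. Zn72D had 10.6 to 17.9 TPM in the Zn72d knockdown and 16.9 to 18.6 TPM in its control, and these ranges overlapped. In the E374A set Adar ran against the titles, at 14.6 to 17.2 TPM in the libraries labelled overexpression and at 879, 801 and 31.5 TPM in those labelled control. The library labelled E374A control 3 had 322 TPM of esg and 0.286 TPM of the muscle gene Mhc, levels within or near those of the midgut set, whereas the other libraries labelled whole organism had 9.05 to 22.8 TPM of esg and 67.0 to 176 TPM of Mhc. Coverage in the E374A overexpression set, as labelled, equalled that of the like-numbered Zn72d controls within 0.1% at 82.5% to 82.6% of genes, so these 3 pairs share reads. In the midgut set, 10-day lacZ library 1 stood apart in several genes described below. Libraries 3 and 4 of that group were near each other in fz2 (115 and 116 TPM) and nkd (22.2 and 22.4 TPM), and less so in fz (5.71 and 4.29 TPM).

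On the dm6 assembly the 9 genes lie on 5 chromosome arms. wg spans 7307159 to 7316265 on 2L and Axn 30022842 to 30035311 on 3R, both on the plus strand. On 3L lie fz (14274343 to 14368639, plus), fz2 (19140975 to 19235373, minus) and nkd (19003741 to 19045449, minus). On X lie fz3 (769945 to 784222, plus), arm (1891401 to 1900646, minus) and sgg (2633952 to 2679553, plus), and arr lies on 2R (13453640 to 13483229, minus). Exons of arm overlap those of mRpL16 on the opposite strand, exons of Axn those of ZIPIC and an antisense RNA on the opposite strand, and exons of sgg those of a long non-coding RNA on the same strand. The strand setting of the counting is not given in the sources used here, so reads in these overlaps may be shared and the values of arm, Axn and sgg are uncertain to that extent.

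In the midgut cells arm and sgg stood highest, the receptor gene fz2 next, and the ligand gene wg at or near 0. On the TPM scale, which divides by transcript length, arm averaged 175 ± 49.98 TPM in the Adar knockdown, 178 ± 5.93 TPM in 30-day lacZ and 262 ± 19.2 TPM in 10-day lacZ libraries (SD, n = 4 each). sgg followed with 130 ± 33.7, 173 ± 58.2 and 199 ± 24.8 TPM in the same order of groups. The midgut range of fz2 was 25.6 to 116 TPM, that of arr 12.6 to 66.2 TPM, that of Axn 11.8 to 46.7 TPM, that of nkd 3.12 to 22.4 TPM and that of fz 1.26 to 5.71 TPM. In each of these 3 groups the means ran in the order arm, sgg, fz2, arr, Axn, nkd, fz, fz3 and wg.

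**Figure D1:**
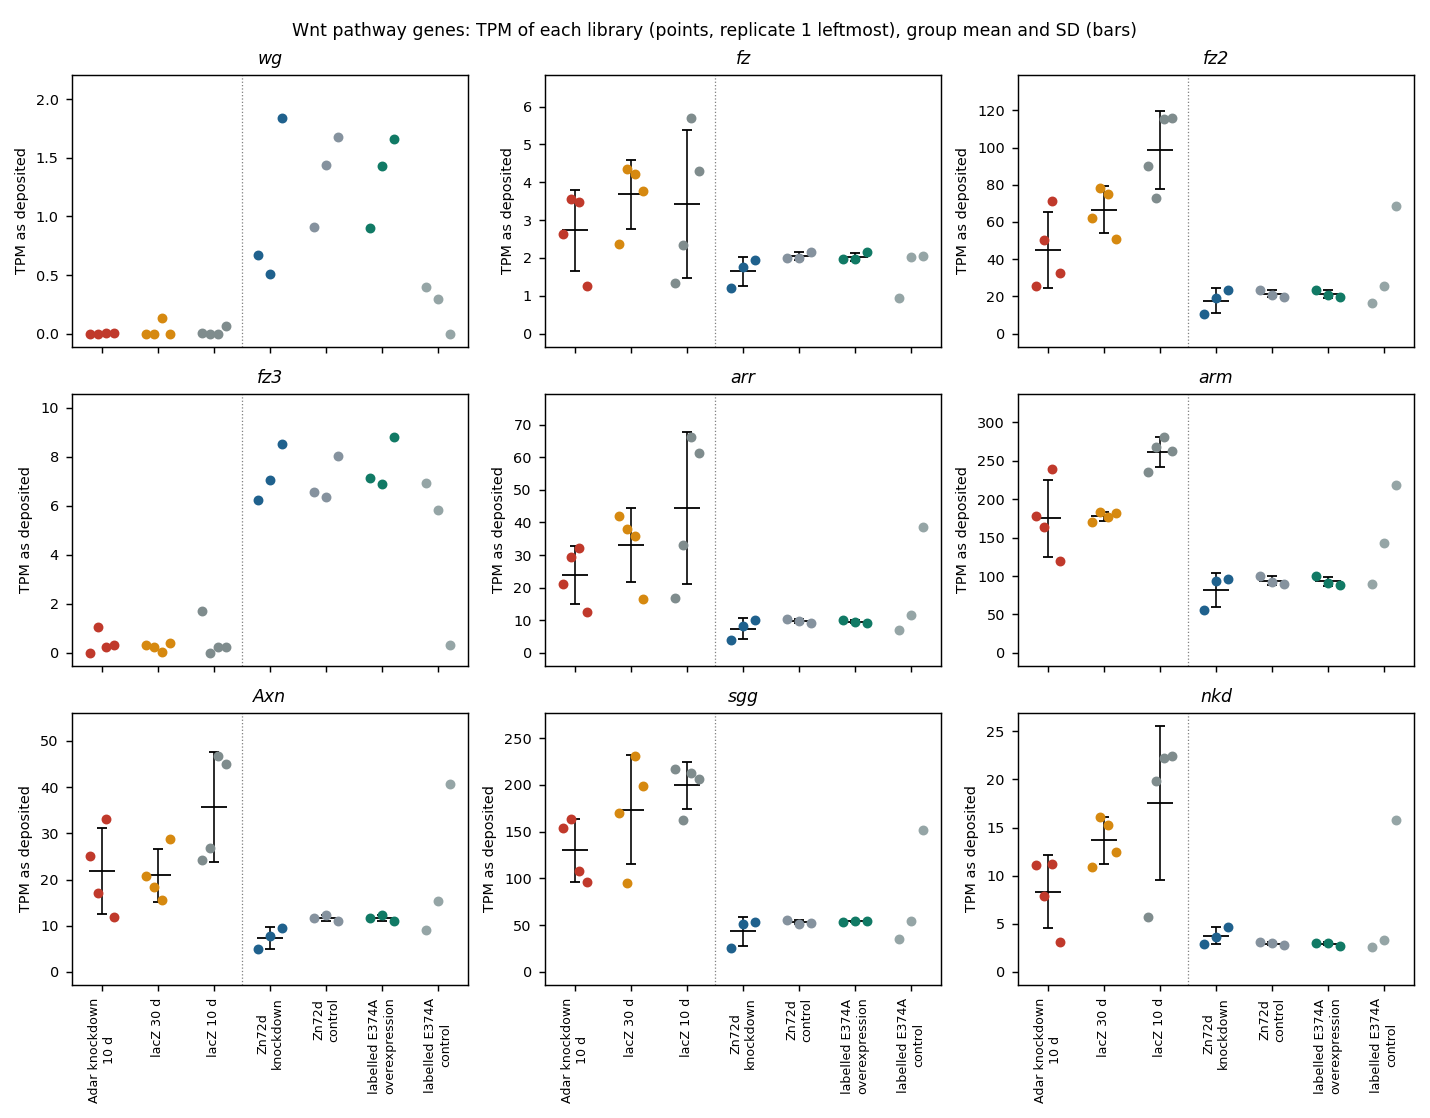
TPM as deposited (vertical axes, from 0) of the 9 Wnt pathway genes in each of the 24 libraries, by group, with replicate 1 leftmost in each group; bars give the group mean and SD where the libraries of a group are of 1 kind (not for wg and fz3, which are near 0 in midgut libraries, nor for the libraries labelled E374A control). For fz2, arr and sgg every midgut library, left of the dotted line, lies above every library right of it except the one labelled E374A control 3. Values of arm, Axn and nkd run higher on the left with some overlap, and wg and fz3 are higher on the right. The point of the library labelled E374A control 3 lies with the midgut values.

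The ligand itself was close to absent from the midgut tables. wg was listed at 0, 0, 0.00573 and 0.00164 TPM in the Adar knockdown, at 0.000957, 0, 0.134 and 0 TPM in 30-day lacZ and at 0.00229, 0.000973, 0.000328 and 0.0658 TPM in 10-day lacZ libraries. In the libraries labelled whole organism wg had 0.67, 0.51 and 1.84 TPM in the Zn72d knockdown and 0.911, 1.44 and 1.68 TPM in its control. The libraries labelled E374A control 1 and 2 had 0.399 and 0.295 TPM, and control 3 had 0.00131 TPM. Every one of these libraries labelled whole organism, except labelled control 3, lay above every midgut library.

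The other ligand genes were of 3 kinds. Wnt6 stayed at or below 0.199 TPM in the midgut libraries and lay between 2.51 and 5.26 TPM in 8 libraries labelled whole organism, namely the Zn72d set and the libraries labelled E374A control 1 and 2. Wnt4 reached at most 0.234 TPM in the midgut libraries and 0.398 to 1.11 TPM in those 8, and wntD at most 0.00197 TPM against 1.2 to 5.76 TPM. Wnt5, a ligand known for signalling through Derailed-type receptors, lay the other way, with 10.9 to 31.7 TPM in the midgut libraries and 0.261 to 0.927 TPM in the 8 others. Wnt2, with 0 to 0.238 TPM and 0 to 0.241 TPM, and Wnt10, with at most 0.00573 TPM and 0 TPM, were low in both. The library labelled E374A control 3 had 17.9 TPM of Wnt5, 0.235 TPM of Wnt6 and 0.125 TPM of Wnt4.

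**Figure D2:**
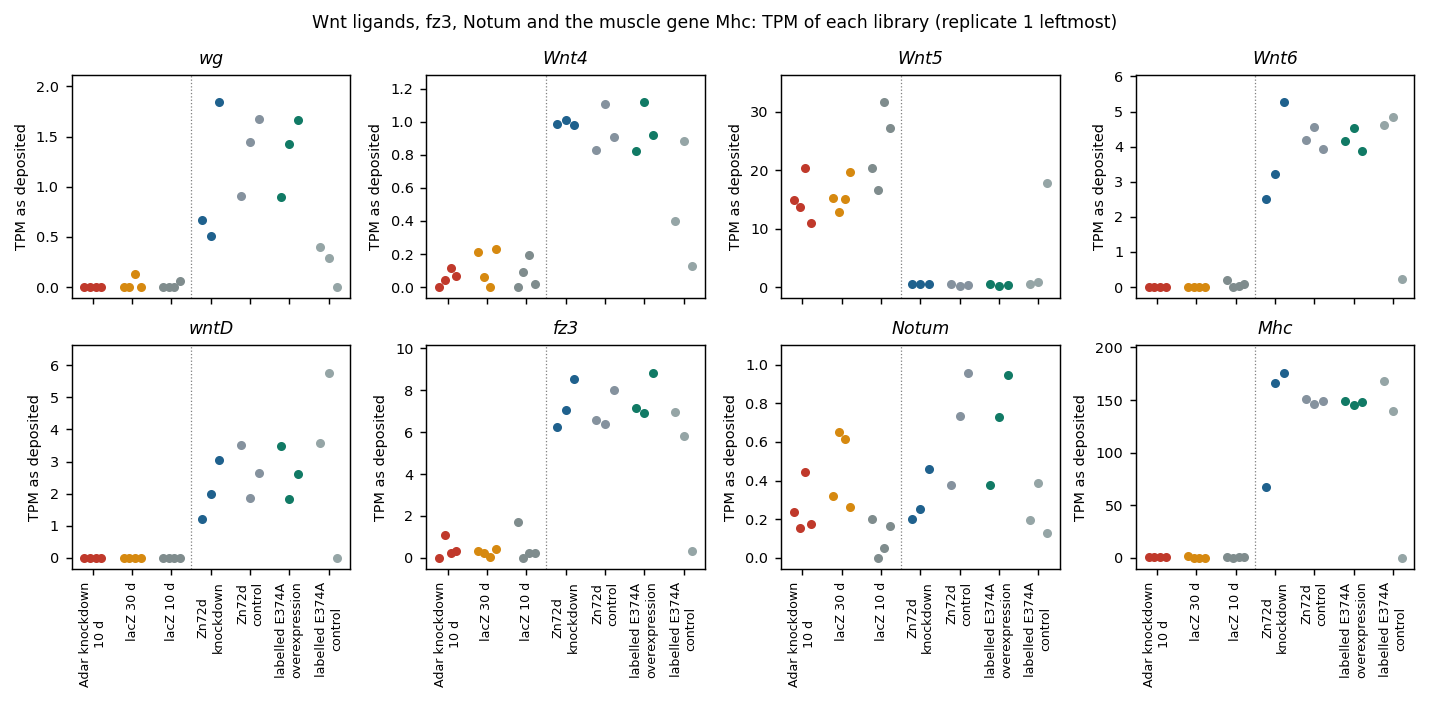
TPM as deposited (vertical axes, from 0) of 5 Wnt ligand genes, fz3, Notum and the muscle myosin gene Mhc in each of the 24 libraries, by group, with replicate 1 leftmost. wg, Wnt4, Wnt6, wntD, fz3 and Mhc are near 0 in the 12 midgut libraries and in the library labelled E374A control 3, and Wnt5 is above 10 TPM in these 13 alone.

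Markers of other cell types also differed between these sets of libraries. The summed level of 12 visceral muscle markers was 62.6 to 155 TPM in the midgut libraries, where Mhc stayed at or below 1.33 TPM and Zasp66, wupA and TpnC73F were listed at 0 in at least 1 library. The same list summed to 1537 to 1989 TPM in the Zn72d knockdown and 1413 to 1577 TPM in its control. Of the 12, 8 lay lower in every midgut library than in each of the above 8 libraries labelled whole organism, 0 higher, and 4 overlapped. Of these 4, how had medians of 32.5 TPM in the midgut and 9.56 TPM in the 8 libraries, Mef2 24.8 and 17.3 TPM, and vn 11.7 and 2.13 TPM, so the list did not differ in 1 direction. The 6 enterocyte markers summed to 257 to 1488 TPM in the midgut libraries, against 2581 to 2933 TPM in the Zn72d knockdown and 2128 to 2767 TPM in its control. The part of these cell types in the values of the ligand genes and fz3 was not tested.

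Among the receptors, fz2 carried most of the Frizzled transcripts. Its share of the summed TPM of fz, fz2, fz3 and fz4 was 68.0, 73.0, 81.9 and 80.5% in the Adar knockdown libraries, 81.5, 83.3, 83.6 and 77.9% in 30-day lacZ and 84.8, 84.7, 81.9 and 84.2% in 10-day lacZ libraries. The mean share was 75.8 ± 6.54% in the knockdown against 83.9 ± 1.34% in 10-day lacZ libraries (SD, n = 4 each), and the groups overlapped, with an exact two-sided permutation p of 0.0571. fz4, which is not among the 9, held most of the remainder, with 18.7 ± 5.05% in the knockdown and 12.9 ± 0.689% in 10-day lacZ libraries (exact permutation p = 0.0571). In the Zn72d set the share of fz2 was 50.5 ± 5.02% in the knockdown and 53.1 ± 2.62% in the control (SD, n = 3 each), and fz3 held 21.9 ± 4.15% and 17.4 ± 2.64%.

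fz3, a Frizzled receptor gene that is a Wingless target and dampens the signal, had, like wg, its higher levels in the libraries labelled whole organism. It had 0.000339, 1.07, 0.243 and 0.329 TPM in the Adar knockdown, 0.324, 0.231, 0.0459 and 0.42 TPM in 30-day lacZ and 1.69, 0.00638, 0.243 and 0.226 TPM in 10-day lacZ libraries. Against this it had 6.26, 7.06 and 8.53 TPM in the Zn72d knockdown and 6.55, 6.37 and 8.03 TPM in its control. The Zn72d groups overlapped each other and lay wholly above the midgut groups.

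The first comparison set Adar knockdown against lacZ at 10 days and asked how these genes differ when Adar is knocked down under the esg driver. The receptor gene fz2 and the beta-catenin gene arm fell in the knockdown on TPM as deposited, fz2 to 45.6% and arm to 67.0% of the 10-day lacZ mean. These were 2 of 7 tested, while 15.9% of all 8745 genes tested were called lower in that comparison. The other 5 tested genes also had negative fold changes, and none of them passed the test. The median log2 fold change of the 7 was −0.72, against −0.39 over all genes tested. Once each library was divided by its median-ratio size factor, which removes a shift shared by most genes, neither fz2 nor arm was called, the median of the 7 was −0.34 and that of all genes −0.02. After that scaling 6.21% of all genes were called in either direction. 1 of the 7 then had an unadjusted limma p under 0.05, as did 2133 of all 8746 genes.

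fz2, one of the receptors of Wingless, had 25.6, 50.4, 71.5 and 32.5 TPM in the Adar knockdown libraries, against 90.1, 72.9, 115 and 116 TPM in the 10-day lacZ libraries. Every knockdown library lay below every 10-day lacZ library, by a narrow margin between knockdown library 3 and lacZ library 2. Groups that did not overlap and were lower made up 18.3% of all genes tested, and fz2 was the only one of the 7. Its log2 fold change was −1.20 ± 0.29 (SE; limma adjusted p = 0.0178), and exact permutation gave a two-sided p of 0.0286, which is the lowest possible with 4 libraries a group. After median-ratio scaling it was −0.81 ± 0.27 (adjusted p = 0.0872), and knockdown library 3 then had 71.1 scaled TPM, above the 67.0 of 10-day lacZ library 2. Over the 12 fits that each left out 1 midgut library the call held in 10. It was lost without 10-day lacZ library 3 (limma adjusted p = 0.0595) or 4 (limma adjusted p = 0.06). With these 2 libraries averaged as 1 it was lost too (log2 fold change −1.11 ± 0.32, limma adjusted p = 0.0592), and 0 of 7 genes were called. The tables also list loci assembled from the reads, a second estimate. With the highest such locus in place of the gene, an alternative chosen after seeing the data, fz2 was called as well (log2 fold change −1.11, limma adjusted p = 0.035), and the groups overlapped.

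arm encodes Armadillo, which serves in adherens junctions as well as in Wnt signalling. It had 179, 164, 240 and 119 TPM in the knockdown, against 235, 268, 281 and 262 TPM in 10-day lacZ libraries. Knockdown library 3 reached into the range of the lacZ libraries and the other 3 lay below it. The log2 fold change was −0.62 ± 0.19 (limma adjusted p = 0.0409; exact permutation p = 0.0571), or −0.23 relative to the median gene, and −0.22 ± 0.18 after median-ratio scaling (adjusted p = 0.468). Over the 12 fits that each left out 1 midgut library the call of arm held in 3, without knockdown library 3, 10-day lacZ library 1 or 30-day lacZ library 1, and the adjusted p ran up to 0.109.

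The remaining receptor genes were spread widely within groups. arr, the co-receptor gene, had 21.3, 29.5, 32.3 and 12.6 TPM in the knockdown and 17.0, 33.0, 66.2 and 61.4 TPM in 10-day lacZ libraries. The low value of 10-day lacZ library 1 lay among the knockdown values, and the log2 fold change was −0.76 ± 0.43 (limma adjusted p = 0.197). In the knockdown the assembly split arr into 2, 3, 1 and 4 loci, and in each lacZ library at 10 days it made 1. The highest locus had 34.4, 46.3, 32.6 and 20.4 TPM in the knockdown and 17.3, 33.2, 66.8 and 61.6 TPM in lacZ libraries, for a log2 fold change of −0.28 (limma adjusted p = 0.626). The sum of its loci gave 0.48 (adjusted p = 0.405), but TPM is per length, so pieces of 1 gene do not add up to its level. The direction of arr is thus uncertain. fz, a receptor for Wingless and for planar polarity, had 2.63, 3.55, 3.48 and 1.26 TPM in the knockdown and 1.34, 2.34, 5.71 and 4.29 TPM in lacZ libraries, which overlap almost wholly. Its log2 fold change was −0.18 ± 0.37 as deposited and 0.11 ± 0.35 after median-ratio scaling (adjusted p = 0.729 and 0.883 by limma).

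In the destruction complex, Axn had 25.1, 17.2, 33.2 and 11.8 TPM in the knockdown and 24.1, 26.8, 46.7 and 45.0 TPM in 10-day lacZ libraries (log2 fold change −0.72 ± 0.32, limma adjusted p = 0.115). Its highest locus had 25.1, 29.1, 34.1 and 24.3 TPM in the knockdown and 35.4, 34.7, 52.2 and 50.5 TPM in lacZ libraries, without overlap (−0.59, limma adjusted p = 0.0549). On annotated rows 18.3% of all genes tested were lower without overlap. sgg, the GSK3 kinase gene, had 154, 164, 107 and 95.9 TPM in the knockdown and 217, 163, 212 and 206 TPM in lacZ libraries (log2 fold change −0.64 ± 0.27, limma adjusted p = 0.0968). For sgg 3 knockdown libraries lay below every lacZ library, and library 2 lay just above the lowest of them. Its assembled locus had 192, 285, 217 and 175 TPM in the knockdown and 294, 247, 289 and 265 TPM in lacZ libraries. There knockdown library 2 lay well within the lacZ range (−0.35, limma adjusted p = 0.16). nkd, a feedback inhibitor induced by Wingless, had 11.1, 7.88, 11.2 and 3.12 TPM in the knockdown and 5.73, 19.9, 22.2 and 22.4 TPM in lacZ libraries (log2 fold change −0.95 ± 0.42, limma adjusted p = 0.113). Only 10-day lacZ library 1 had nkd in the range of the knockdown. There nkd was split into 2 loci, the higher at 13.4 TPM, and with the highest locus of each library the log2 fold change was −0.59 (adjusted p = 0.12).

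The count of called genes depended on which 10-day lacZ library was left out. It was 0 without library 3 or 4 and 1 without library 2. Without library 1, 4 of 7 were called lower, where 19.5% of all genes were: fz2 (log2 fold change −1.23 ± 0.32, limma adjusted p = 0.0192), arm (−0.67 ± 0.21, 0.0354), arr (−1.15 ± 0.38, 0.0426) and nkd (−1.39 ± 0.34, 0.0163). These were values of the annotated rows, and arr and nkd were split into loci in knockdown libraries 1, 2 and 4. With any 10-day lacZ library left out and median-ratio scaling applied, 0 of 7 were called. Library 1 also differed in markers, with 2617 TPM of the enteroendocrine list against 300 to 308 TPM in the other 10-day lacZ libraries, and 148 TPM of the fat body list against 0.627 to 1.82 TPM. The part of these in its values was not tested.

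**Figure D3:**
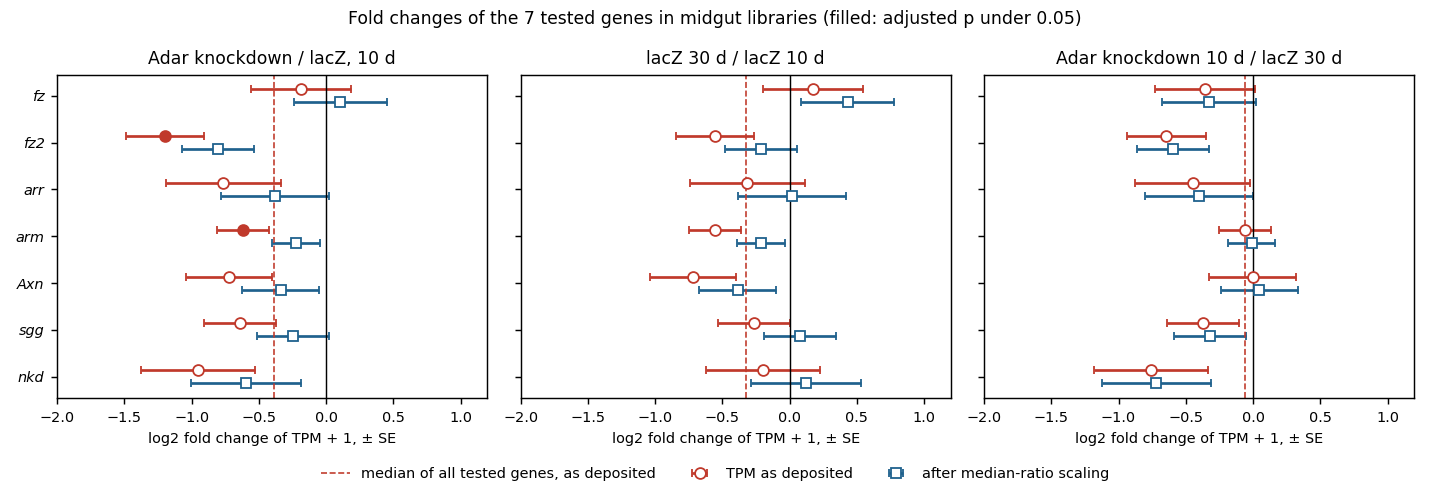
Log2 fold change of TPM + 1 with its standard error (horizontal axes) for the 7 tested Wnt pathway genes in the 3 midgut comparisons, on TPM as deposited (red circles) and after median-ratio scaling (blue squares), with filled symbols at an adjusted p under 0.05 and the dashed line at the median of all tested genes as deposited. Only fz2 and arm in the Adar knockdown comparison are filled, on TPM as deposited.

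Sums of progenitor, enterocyte and haemocyte markers did not overlap between the knockdown and 10-day lacZ libraries. Those of enteroendocrine, fat body and tracheal markers overlapped. The 8 progenitor markers summed to 1163 to 1430 TPM in the knockdown, 1232 to 1627 TPM in 30-day lacZ and 1665 to 2722 TPM in 10-day lacZ libraries, and the 6 enterocyte markers to 464 to 1488, 619 to 1025 and 257 to 437 TPM. esg had 344, 278, 360 and 189 TPM in the knockdown and 547, 327, 802 and 703 TPM in 10-day lacZ libraries (log2 fold change −0.99 ± 0.29, limma adjusted p = 0.0345, or 0.181 when scaled by median ratios). The 10 enteroendocrine markers summed to 490 to 940, 1063 to 1978 and 300 to 2617 TPM in these groups. Haemocyte markers summed to 7.54 to 13.9, 9.09 to 17.1 and 17.3 to 32.6 TPM. Over the midgut libraries srp, of that list, had 6.93 to 27.0 TPM, while Hml, NimC1 and He stayed at or below 0.252 TPM. The haemocyte sums thus rest mainly on srp. Fat body markers summed to 13.7 to 54.5, 6.41 to 35.6 and 0.627 to 148 TPM, and tracheal markers to 1.04 to 4.93, 3.93 to 9.52 and 2.36 to 9.61 TPM. Assembled loci numbered 12342 to 13806 in the knockdown, 11615 to 12724 in 30-day and 10423 to 11646 in 10-day lacZ libraries. The part of these differences in the values of fz2 and arm was not tested, and in bulk RNA fewer cells of a type and less RNA per cell cannot be told apart.

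The second comparison set lacZ at 30 days against lacZ at 10 days and asked how these genes differ with age. No Wnt pathway gene passed the test, 0 of 7, where 19.6% of all genes were called in either direction. 2 of the 7, arm and Axn, had an unadjusted limma p under 0.05, as did 3295 of all 8745 genes. The median log2 fold change of the 7 was −0.32, the same as the −0.32 over all genes tested, and 0.02 after median-ratio scaling, where again 0 of 7 and 8.94% of all genes were called. At that scaling 0 of the 7 had an unadjusted limma p under 0.05, where 2306 of all 8746 genes did.

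arm was nearest to the threshold. It had 170, 183, 176 and 182 TPM at 30 days, against 235, 268, 281 and 262 TPM at 10 days. All 30-day libraries lay below all 10-day libraries, as for 22.9% of all genes tested, and arm was the only one of the 7. Its log2 fold change was −0.55 ± 0.19 (limma adjusted p = 0.0571; exact permutation p = 0.0286, the smallest possible), which is −0.23 relative to the median gene. arm was called when Adar knockdown library 3 or 4 was left out of the shared fit, when only these 2 groups were fitted, and, chosen after seeing the data, with the assembled locus in place of the gene (adjusted p = 0.0459 by limma).

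fz2 had 62.3, 78.4, 75.0 and 50.8 TPM at 30 days, against 90.1, 72.9, 115 and 116 TPM at 10 days (log2 fold change −0.55 ± 0.29, limma adjusted p = 0.177). The 30-day libraries 2 and 3 exceeded the lowest 10-day library. Axn had 20.8, 18.4, 15.6 and 28.8 TPM at 30 days and 24.1, 26.8, 46.7 and 45.0 TPM at 10 days (log2 fold change −0.72 ± 0.32, limma adjusted p = 0.12), with an overlap made by 30-day library 4. In 30-day libraries 2 and 3 the assembly split Axn into 2 loci. Its highest locus had 27.1, 36.5, 36.8 and 31.2 TPM at 30 days and 35.4, 34.7, 52.2 and 50.5 TPM at 10 days. With that locus the log2 fold change was −0.37 (limma adjusted p = 0.2). The fold changes of fz, arr, sgg and nkd ran from −0.32 to 0.17, each smaller than its standard error.

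The third comparison set Adar knockdown at 10 days against lacZ at 30 days, which differ in age as well as in construct, so the contributions of each cannot be told apart. No gene was called, 0 of 7, where 0.469% of all genes were called in either direction. 1 of the 7, fz2, had an unadjusted limma p under 0.05, both as deposited and after median-ratio scaling. So did 1032 of all 8745 genes as deposited and 1106 of 8746 after scaling. The log2 fold change of fz2 was −0.64 ± 0.29 (limma adjusted p = 0.408), and 3 of 4 knockdown libraries lay below every 30-day library. The groups overlapped for every one of the 7, while 7.35% of all genes tested did not overlap. nkd averaged 8.33 ± 3.81 TPM in the knockdown and 13.7 ± 2.40 TPM at 30 days (SD, n = 4 each; log2 fold change −0.76 ± 0.42, limma adjusted p = 0.512), and arm 175 ± 49.98 and 178 ± 5.93 TPM (log2 fold change −0.06 ± 0.19). The knockdown and 30-day comparisons above share the 10-day lacZ libraries, so their values are not independent.

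The fourth comparison set the Zn72d knockdown against its control in libraries labelled whole organism. None of the 9 genes, all tested here, was called by limma, where 2.12% of all 8478 genes were called in either direction. The targeted gene Zn72D was not called either, as deposited or after median-ratio scaling. 1 of the 9, Axn, had an unadjusted limma p under 0.05, as did 1676 of all 8478 genes. The median log2 fold change of the 9 was −0.27, against −0.17 over all genes tested. Axn had 4.89, 7.80 and 9.41 TPM in the knockdown, against 11.6, 12.3 and 10.9 TPM in the control (log2 fold change −0.63 ± 0.23, limma adjusted p = 0.196; exact permutation p = 0.1, the lowest possible with 3 libraries a group). Its groups did not overlap, nor did those of fz, at 1.21, 1.76 and 1.95 TPM in the knockdown against 1.997, 1.99 and 2.17 TPM in the control, and 19.8% of all genes were lower without overlap. nkd and fz3 had positive fold changes, 0.26 ± 0.20 and 0.05 ± 0.19.

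Library 1 of the Zn72d knockdown was the lowest of the 6 for 7 of the 9 genes. It had 10.5 TPM of fz2, against 19.2 and 23.5 TPM in the other knockdown libraries and 19.8 to 23.5 TPM in the control. For sgg it had 25.8 TPM, against 51.7 and 53.3 TPM and 51.7 to 55.6 TPM, and for arm 56.0 TPM, against 94.0 and 95.9 TPM and 89.3 to 100.4 TPM. Without it the log2 fold changes were −0.01 for fz2, −0.01 for sgg, 0.02 for arm, −0.08 for arr and −0.40 ± 0.16 for Axn (limma adjusted p = 0.224). Mhc was also low in that library, at 67.0 TPM against 167 and 176 TPM in the others. The list of 12 visceral muscle markers summed to 1537 TPM there, within the 1413 to 1577 TPM of the control. In the other knockdown libraries it summed to 1989 and 1875 TPM. The median-ratio size factor of library 1 was 0.791, against 0.958 to 1.12 in the other libraries of the set. The part of these in its values was not tested.

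The last comparison set the libraries labelled E374A overexpression against those labelled E374A control, whose Adar levels go against these titles. 8 of the 9 genes were tested, wg being below the filter, and 0 were called, where 0.317% of all 8840 genes were called in either direction. 0 had an unadjusted limma p under 0.05, where 527 of all 8840 genes did. fz2 had 23.7, 21.0 and 19.6 TPM in the libraries labelled overexpression, against 16.2, 25.5 and 68.5 TPM in those labelled control. arm had 99.5, 90.9 and 88.6 TPM, against 89.2, 143 and 218 TPM, and nkd 3.04, 2.97 and 2.74 TPM, against 2.57, 3.36 and 15.8 TPM. The library labelled control 3, deposited with assembled loci unlike the rest of this set, held the highest value of each. Without it again 0 of 8 were called, with 3.87% of all genes, and the log2 fold changes lay between −0.28 ± 0.22 for arm and 0.33 ± 0.28 for fz. The libraries labelled overexpression share reads with the Zn72d controls, so the Zn72d and E374A comparisons are not independent. wg itself had 0.902, 1.43 and 1.66 TPM in the libraries labelled overexpression, against 0.399, 0.295 and 0.00131 TPM in those labelled control, and was not tested.

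The other genes of the pathway, 43 in lists of ligands, surface factors, cytoplasmic transducers, nuclear partners, junction partners and planar polarity genes, were examined beside these 9. In the Adar knockdown 0 of 35 tested were higher and 11 lower on TPM as deposited, and their median log2 fold change was −0.64 against −0.39 over all genes. Of all 8745 genes tested 326 were higher and 1393 lower. After median-ratio scaling 1 was higher and 1 lower, with a median of −0.33 against −0.02, where 405 and 138 of all genes were called. At 30 days 1 was higher and 9 lower as deposited, with a median of −0.51 against −0.32 and with 370 and 1346 of all genes, and 1 was higher and 0 lower after scaling, with 505 and 277 of all genes. In the Zn72d and E374A comparisons 0 of 32 and 0 of 34 were called, where 2.12% and 0.317% of all genes were, and between Adar knockdown and 30-day lacZ 0 of 35, where 0.469% were.

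The gene called lower under both scalings in the Adar knockdown was nmo, which encodes a kinase known to restrain Wingless signalling. It had 3.21, 9.85, 7.56 and 4.30 TPM in the knockdown, against 21.9, 13.1, 35.7 and 42.04 TPM in 10-day lacZ libraries. The groups did not overlap, and 18.3% of all genes tested were likewise lower without overlap. The log2 fold change of nmo was −1.99 ± 0.37 (limma adjusted p = 0.00802, or 0.0159 when scaled by median ratios). Assembled loci were not examined for nmo. por, the acyltransferase gene whose product prepares Wnt ligands for secretion, was called higher at 30 days under both scalings, with 11.2, 17.7, 16.9 and 16.6 TPM at 30 days and 7.14, 4.53, 5.11 and 4.95 TPM at 10 days (log2 fold change 1.37 ± 0.32, limma adjusted p = 0.0145). In the knockdown por had 8.63, 11.3, 21.7 and 6.14 TPM and was called higher than at 10 days in lacZ only after scaling (adjusted p = 0.0339 by limma, against 0.0634 as deposited). wls, the carrier of lipid-modified Wnt ligands, fell in both, to 13.2 ± 4.49 TPM in the knockdown and 13.4 ± 3.03 TPM at 30 days, against 29.2 ± 9.02 TPM in 10-day lacZ libraries (adjusted p = 0.0253 and 0.0285 by limma), and neither call held after scaling (adjusted p = 0.137 and 0.121).

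Of the destruction complex, Apc2, slmb and CkIalpha fell in the knockdown as deposited (log2 fold changes −1.08 ± 0.26, −0.74 ± 0.19 and −0.46 ± 0.15), and CkIalpha fell at 30 days (−0.57 ± 0.15). Rnf146, the gene of a ubiquitin ligase that acts on Axin, fell at 30 days too (−1.33 ± 0.37). pan, the gene of the transcription factor partner of Armadillo, had 6.38, 6.64, 7.43 and 1.33 TPM in the knockdown, against 8.41, 13.4, 16.6 and 11.8 TPM in 10-day lacZ libraries (log2 fold change −1.20 ± 0.39, limma adjusted p = 0.0446). The E-cadherin gene shg, whose product binds Armadillo at junctions, had 61.6, 119, 98.0 and 41.2 TPM in the knockdown and 160, 127, 271 and 234 TPM in lacZ libraries (−1.35 ± 0.31, adjusted p = 0.015). The knockdown also had lower dally, a glypican gene (log2 fold change −1.08), dnt, a receptor gene of the Ryk family (−1.47), the planar polarity gene Vang (−0.88) and the junction gene p120ctn (−0.75). At 30 days nmo (−1.24), the receptor-like gene otk (−1.30), hyx (−0.52), alpha-Cat (−0.74), Vang (−0.76) and p120ctn (−1.04) were called lower. After median-ratio scaling none of the calls named since Apc2 held in its comparison.

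Some pathway genes did not pass in any of the 5 comparisons. dsh averaged 23.3 ± 1.13 TPM in the knockdown, 26.8 ± 4.11 TPM at 30 days and 35.3 ± 9.23 TPM in 10-day lacZ libraries, and Apc 24.8 ± 3.71, 29.8 ± 8.56 and 31.6 ± 13.7 TPM (SD, n = 4 each). Notum, a Wingless target whose product inactivates Wnt ligands, stayed below the filter in midgut libraries. It had 0.322, 0.654, 0.615 and 0.263 TPM at 30 days, against 0.203, 3.9e-05, 0.0496 and 0.165 TPM at 10 days, without overlap but at levels too low to be tested.

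**Figure D4:**
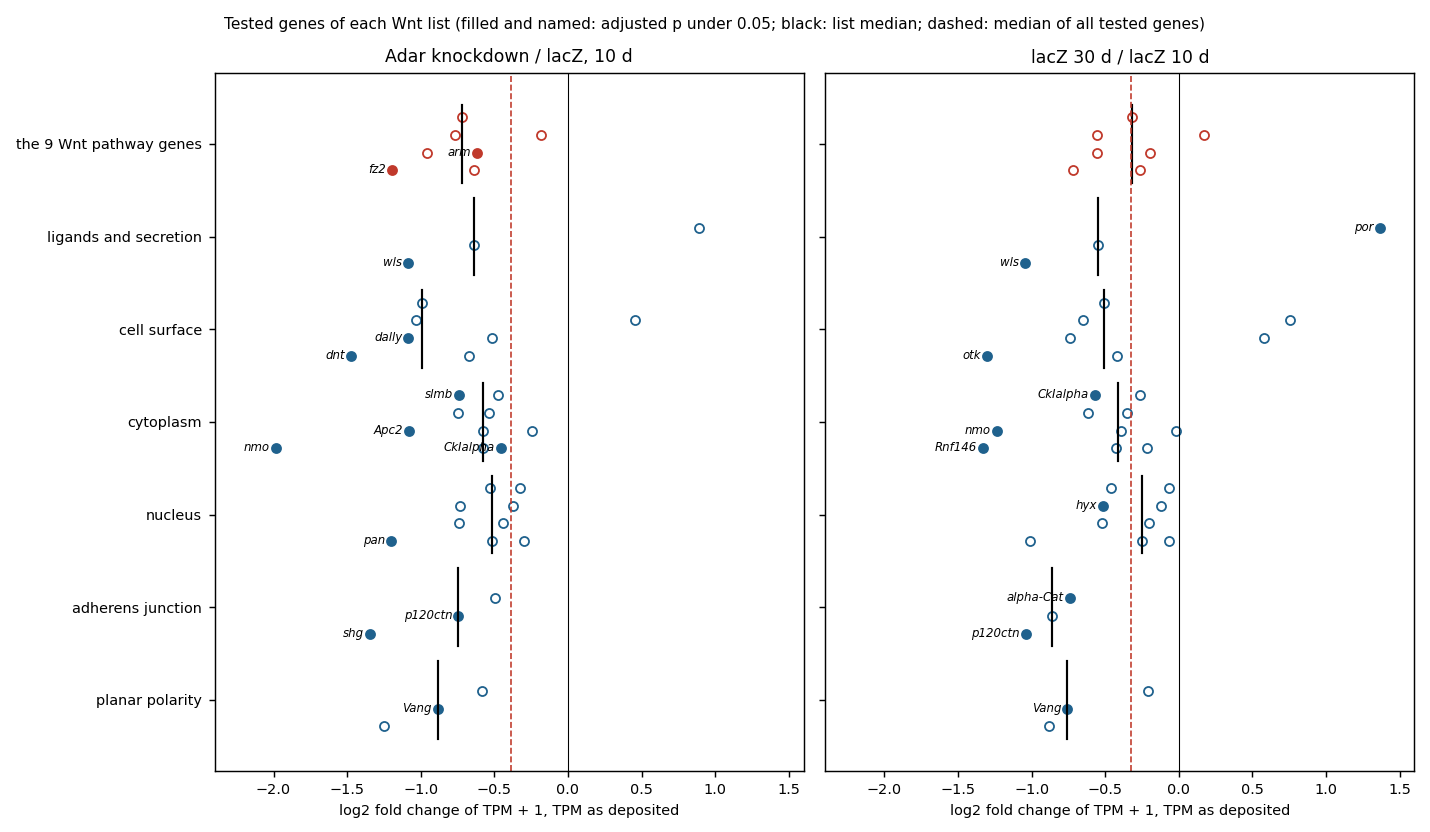
Log2 fold change of TPM + 1 on TPM as deposited (horizontal axes) of each tested gene of the 9 Wnt pathway genes (red) and of 6 lists of other pathway genes (blue), for Adar knockdown against 10-day lacZ and 30-day against 10-day lacZ, with filled and named points at an adjusted p under 0.05, black bars at list medians and the dashed line at the median of all tested genes. Filled points lie left of 0 in both panels except por at 30 days.

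Across the 12 midgut libraries the 7 tested genes varied together to different degrees. Pearson correlations of log2(TPM + 1) were 0.863 for arm and Axn, 0.812 for arr and nkd, 0.786 for fz and nkd, 0.751 for fz2 and arm and 0.727 for fz and arr. After median-ratio scaling they were 0.685, 0.758, 0.735, 0.471 and 0.659, and within groups 0.78, 0.764, 0.835, 0.524 and 0.759. sgg stood apart, with correlations of 0.237 to 0.427 to the other 6 as deposited and of 0.00684 to 0.162 after scaling. These rest on its annotated row, which differed unevenly from its assembled locus. Row and locus had 94.7 and 223 TPM in 30-day lacZ library 2, and 154 and 192 TPM in knockdown library 1. With esg, the correlations were 0.839 for Axn, 0.764 for arm, 0.683 for fz2 and 0.324 for fz as deposited, 0.698, 0.393, 0.441 and 0.0801 after scaling, and 0.739, 0.464, 0.354 and 0.416 within groups. These are descriptions over 12 libraries that share groups and scale.

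The genes whose patterns were most like each member were sought among 4386 named genes with a mean of at least 5 TPM in the midgut libraries. For Axn they were Rhau, Dcr-1 and Pgant7 (Pearson r of 0.975, 0.938 and 0.937), and for arr they were drk, Pi3K92E and sqz (0.967, 0.953 and 0.943). For arm they were Trl, UBL3 and Nrd1 (0.964, 0.954 and 0.942), for nkd REPTOR, brwl and stau (0.958, 0.957 and 0.955), and for fz2 nito, Paics and tow (0.95, 0.948 and 0.943). For fz they were waw, bbx and sowah (0.947, 0.943 and 0.929). The likeness was weaker for sgg, where rogdi, Eip75B and Drice came first (0.796, 0.784 and 0.783). These values are as deposited and are the highest of 4386 for each gene, so the choice itself makes them high. After median-ratio scaling the same pairs ran from 0.593 for sgg and Drice to 0.954 for Axn and Rhau.

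On TPM as deposited the 3 highest means of fz2, arr, arm, sgg and nkd over the 7 groups stood in 1 order. Adar knockdown lay below 30-day lacZ, and 30-day below 10-day lacZ. For fz2 the means were 45.0 ± 20.5, 66.6 ± 12.6 and 98.6 ± 20.9 TPM (SD, n = 4 each), and neighbours in the order overlapped. For arm the step between 30-day and 10-day lacZ was free of overlap and the other steps were not. After median-ratio scaling the order of the midgut means held for fz2, arr and nkd but not for arm or sgg. Scaled means of arm were 188 in the knockdown and 186 at 30 days, and those of sgg 182 at 30 days and 164 at 10 days. At 30 and 10 days the scaled means of arr were 34.6 and 35.7, and those of nkd 14.32 and 14.35. Axn was lowest in the Zn72d knockdown, at 7.37 ± 2.29 TPM, against 11.6 ± 0.687 TPM in its neighbour in the order, the Zn72d control (SD, n = 3 each), without overlap. fz had its lowest mean there too, at 1.64 ± 0.384 TPM, and overlapped its neighbour in the order, the libraries labelled E374A control.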

How the data were processed

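RNA-seq libraries of 24 samples were grouped by their titles and library names. The submitters' processing notes name STAR 2.7.1a, StringTie and the dm6 assembly. The authors deposited TPM, FPKM and coverage (signal) for each gene, and the tables used here give no read counts, so no count test was run. The comparisons were instead made on the authors' TPM values. FPKM, as deposited, served as an alternative, and the deposited coverage was used to look for shared reads.

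Values were taken as log2(TPM + 1), genes with a mean of at least 1 TPM in the fit were kept, and limma 3.58.1 (statmod 1.5.0, R 4.3.3; trend and robust options, two-sided) was fitted over all genes in each of 3 sets: midgut (12 libraries), Zn72d (6) and E374A (6). Calls used a Benjamini-Hochberg adjusted p under 0.05. Single values were tested by exact permutation of libraries. Tables were built with Python 3.11.15, pandas 2.3.3 and numpy 2.4.6, and drawn with matplotlib 3.10.9. Of 17137 symbols 17125 matched RefSeq or FlyBase names, as did 17751 of 17830 identifiers. The fits were checked on simulated data.

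TPM is relative to each library's total. In the midgut tables the assembled loci alone sum to 1000000 TPM, and the rows of annotated genes, used here, to 881199 to 955176 in the Adar knockdown, 935996 to 950892 in 30-day lacZ and 963356 to 984051 in 10-day lacZ libraries, so a shift shared by most genes can arise from scale. Median-ratio size factors were 0.879 to 1.01, 0.928 to 0.976 and 1.09 to 1.32 in the same groups. The other alternatives were another pseudocount or filter, quantile normalization, a replicate block, fits of only the groups compared and fits without each library. After the data were seen, loci on the same strand and lying mostly within the gene replaced the rows of fz2, arr, arm, Axn, sgg and nkd, as the highest locus or the sum; those over fz hold another gene, CG13482.

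The 9 genes, the lists of other pathway genes and the markers were chosen with earlier results of these data known. Genes named beyond the 9 are those of the pathway lists that were called in a comparison, Notum, Wnt4, Wnt6, Apc, Apc2, dsh and pan in any case, the targeted genes Adar and Zn72D, esg and Mhc with the summed level of each marker list, and for each of the 7 tested genes the 3 named genes with the highest correlation. Wnt2, Wnt5, Wnt10, wntD and fz4 were named after their values were seen. So were the muscle markers Zasp66, wupA, TpnC73F, how, Mef2 and vn, and the haemocyte markers srp, Hml, NimC1 and He.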

Additional observations from a re-analysis of the deposited data

Results flagged for a closer look

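Of 27 sets of 4 libraries, the 9 genes in the 3 midgut groups, 4 held a library far from the others, judged by its gap to the nearest library divided by the range of the group. Chance gives about 1 in 20 for normally spread values, which values near 0, as for wg and fz3, need not be. wg had 0.134 TPM in 30-day lacZ library 3 (gap over range 0.993) and 0.0658 TPM in 10-day lacZ library 4 (0.97), both far under 1 TPM. fz3 had 1.69 TPM in 10-day lacZ library 1 (0.859), against at most 0.243 TPM in the other 10-day lacZ libraries. nkd had 5.73 TPM in 10-day lacZ library 1 (0.846), against 19.9 to 22.4 TPM in the others. In that library the reads of nkd were assembled into 2 loci, the higher at 13.4 TPM, and in the others into 1.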

How the results depend on the processing

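Depth is unknown, since the tables used here hold no counts, and wg and fz3 are too low in midgut libraries to be compared. In the Adar knockdown 2 of 7 genes were called. The count was 0 with median-ratio scaling, quantile normalization or 10-day lacZ libraries 3 and 4 averaged (also with median-ratio scaling, chosen after seeing the data), and 1, fz2, with no filter, annotated genes rescaled to 1000000, FPKM, no trend and robust options, or only the 2 groups fitted. Across fits that left out 1 library it ran between 0 and 4, and for ageing between 0 and 1. Ageing had 1, arm, with only the 2 groups fitted or with assembled loci, highest or summed, in place of the genes (chosen after seeing the data), where the Adar knockdown count stayed at 2, fz2 and arm. Replicate numbers did not pair the libraries (correlations of deviations −0.301 to 0.225 in the midgut, −0.0696 to 0.0547 in the Zn72d and −0.00887 to 0.169 in the E374A set). With the replicate block the Adar knockdown count was 1, fz2 (adjusted p = 0.024 by limma), and arm was not called (0.0569), and with the block and median-ratio scaling it was 0. The cause of these changes was not tested.

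None of the sign changes was of a called gene. With median-ratio scaling, with or without the replicate block, fz in the Adar knockdown had a log2 fold change of 0.11, arr, sgg and nkd at 30 days had 0.019, 0.077 and 0.12, Axn in the knockdown against 30-day lacZ had 0.047, and sgg in the E374A set had 0.083. With libraries 3 and 4 averaged and that scaling, fz had 0.25 in the knockdown, and arr, sgg and nkd had 0.21, 0.067 and 0.25 at 30 days. Quantile normalization gave 0.020 for arr and 0.18 for nkd at 30 days, and 0.043 for Axn against 30-day lacZ. In that comparison Axn had 0.0068 with a pseudocount of 5, 0.052 after rescaling and 0.10 with FPKM, and arm 0.052 with FPKM. With loci summed, arr had 0.48 in the Adar knockdown and 0.80 against 30-day lacZ, and Axn 0.097 at 30 days. With the highest locus arr had 0.038 against 30-day lacZ. With either sgg had 0.021 at 30 days.

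Leaving out 1 library, as deposited or with median-ratio scaling, turned the sign of some small fold changes. In the Adar knockdown fz ran between −0.45 and 0.32. At 30 days fz ran between −0.094 and 0.62, arr −0.70 and 0.32, sgg −0.43 and 0.34, and nkd −0.63 and 0.28. In the knockdown against 30-day lacZ arm ran between −0.23 and 0.14 and Axn −0.23 and 0.27. In the Zn72d set fz2 ran between −0.55 and 0.058, fz3 −0.056 and 0.34, arm −0.36 and 0.087, and sgg −0.52 and 0.052. In the E374A set fz ran between −0.0048 and 0.56, fz2 −0.94 and 0.21, arr −1.08 and 0.23, Axn −1.045 and 0.12, sgg −0.73 and 0.46, and nkd −1.13 and 0.11. Of 1209 alternative values of single genes, 1048 kept their direction and side of the threshold.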
